A study of Homo sapiens with 6 samples.

Results

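The genes described here encode the receptors, the adaptor, the protease and the protease inhibitor of the extrinsic pathway of apoptosis. They were taken by symbol from the deposited table: the receptors FAS, TNFRSF1A, TNFRSF10A, TNFRSF10B and TNFRSF10D, the ligand TNFSF10, the adaptor FADD, the protease CASP8 and its inhibitor CFLAR. These are 9 of the 60623 genes listed, and 8 of them had enough counts to be tested, among 14928 tested genes. The samples were DU145 cells, a line established from a human prostate cancer and labelled as wild type. Of the 6 libraries, 3 were controls that received DMSO, the solvent, and 3 received CCS1477 at 1 µM. CCS1477, also called inobrodib, binds the bromodomain with which the acetyltransferases p300 and CBP attach to acetylated chromatin. Both groups were treated for 24 h, grown with serum, and the labels mention no death ligand. Messenger RNA selected by its poly-A tail was sequenced, and the comparison asks which transcripts differed after CCS1477. Whether the replicates were separate cultures is not stated, so the p-values cover the spread between these libraries, and that spread may be technical.

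Death receptors carry a cytoplasmic death domain. After a ligand binds, Fas and the TRAIL receptors recruit FADD, which binds caspase-8 through death effector domains, and the clustered caspase-8 activates itself and then the executioner caspases. The CFLAR product, cFLIP, resembles caspase-8 but lacks its active site, takes its place in the complex and limits its activation. TNF receptor 1 first assembles a complex that activates NF-κB, and CFLAR is a known NF-κB target.

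Library totals ran from 8286883 to 11956748 estimated counts, so 3 counts, taken as the detection floor, stood for 0.256 to 0.368 CPM, the counts of a gene per 1000000 counts of its library after scaling by TMM normalization factors. Mitochondrial transcripts took between 4.46% and 6.26% of the counts of a library, with overlapping groups. The 5 epithelial markers (EPCAM, KRT8, KRT18, KRT19 and CDH1) summed to between 2127 and 2492 TPM, a level scaled by transcript length, in all 6 libraries. Most of that sum was keratin transcripts, and CDH1, the E-cadherin gene, had 75.1, 79.5 and 49.3 TPM in DMSO and 33.7, 30.2 and 29.4 TPM in CCS1477. The groups did not overlap, and in edgeR's quasi-likelihood test CDH1 fell by 1.17 (adjusted p = 1.64e-05) and KRT19 by 0.34 (adjusted p = 0.0210) on the log2 scale. KLK3, a marker of prostate luminal cells, was listed at 0 in every library. PTPRC, CD3E, PECAM1 and DCN, markers of leukocytes, endothelium and fibroblasts, were listed at 0 in every library. The 5 leukocyte markers together summed to 1.99 to 4.46 TPM, most of it CD14, the 3 endothelial markers to at most 0.46 TPM, and the 4 fibroblast markers to 5.45 to 11.1 TPM in DMSO and 4.30 to 5.44 TPM in CCS1477, most of it COL1A1. The part of these marker signals in the results was not tested. In bulk RNA, fewer cells expressing a gene and less RNA per cell cannot be told apart.

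CFLAR, FAS and TNFRSF1A fell with CCS1477, and none of the genes rose. The inhibitor CFLAR fell by 51.4%, the receptor gene FAS by 39.4% and the TNF receptor gene TNFRSF1A by 35.6%. The protease CASP8 and the adaptor FADD stood at log2 fold changes of -0.16 and -0.10 and missed the threshold, as did the 3 TRAIL receptor genes. Of the 8 tested genes, 3 were lower and 0 higher at an adjusted p below 0.05, by the quasi-likelihood test of edgeR, with p-values adjusted by the Benjamini-Hochberg method over all tested genes. Over all tested genes, 10.7% were lower and 7.23% higher. At an unadjusted p below 0.05, 5 of the 8 were lower and 0 higher, in edgeR as in DESeq2. The shares of all tested genes at that threshold were 17.3% lower and 14.4% higher in edgeR, and 15.4% and 13.5% in DESeq2. The median log2 fold change of the 8 was -0.34, against -0.003 over all tested genes. In 7 of the 8 the CPM of the CCS1477 libraries lay wholly below those of the DMSO libraries, a separation that 19.3% of all tested genes showed in that direction, and CASP8 was the exception.

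**Figure D1:**
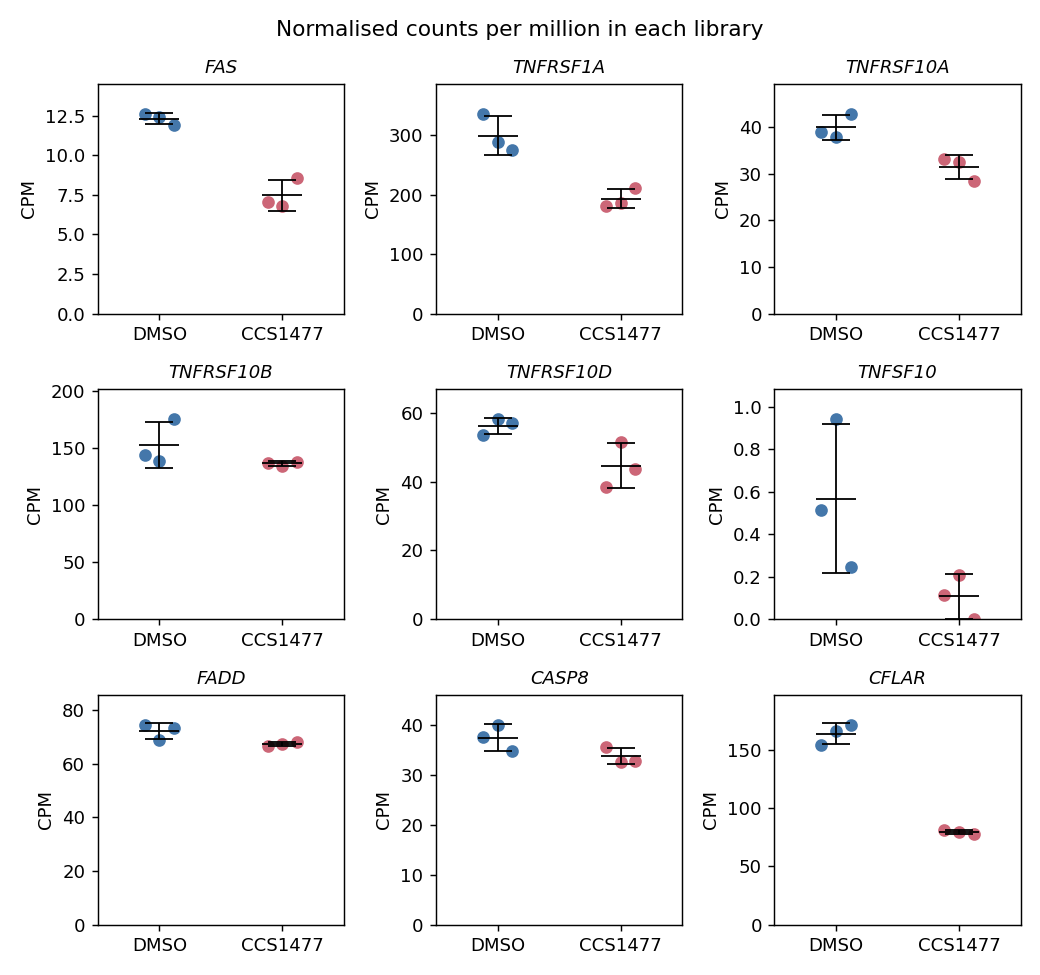
CPM (vertical axes, linear, each starting at 0) of the 9 genes in the 3 DMSO and 3 CCS1477 libraries. Points are libraries, and horizontal marks with bars are the mean and SD (n = 3). CFLAR, FAS and TNFRSF1A show a gap between the groups, the CASP8 groups overlap, and TNFSF10 lies below 1 CPM throughout.

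The level of each transcript per length was compared by TPM. TNFRSF1A was the most abundant of the 9 in DMSO, at 210.1 ± 31.4 TPM (SD, n = 3). CFLAR followed at 75.3 ± 3.03 TPM, then TNFRSF10B at 66.6 ± 2.31, FADD at 58.9 ± 3.86 and CASP8 at 30.3 ± 2.58 TPM (SD, n = 3). TNFRSF10A and TNFRSF10D stood at 22.6 ± 1.38 and 22.1 ± 1.55 TPM and overlapped each other, so their order cannot be given. FAS was lower, at 9.61 ± 1.14 TPM, and TNFSF10 lowest, at 0.487 ± 0.300 TPM. Each other pair of neighbours in this order was separated in every library. With CCS1477 the order changed in the upper part: CFLAR, at 40.2 ± 2.58 TPM, lay below TNFRSF10B (63.9 ± 2.79) and FADD (57.7 ± 0.329), with no overlap between neighbouring genes (SD, n = 3).

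The only ligand among the 9 genes, TNFSF10 (chromosome 3, 172505508 to 172523475), encodes TRAIL. It had 6, 11 and 2 counts in DMSO libraries 1, 2 and 3, and 1, 2 and 0 counts in CCS1477 libraries 1, 2 and 3. All CCS1477 libraries and DMSO 3 were below the floor of 3 counts, and the gene did not enter the test. The summed counts, 3 against 19, gave a ratio of CCS1477 to DMSO of 0.183 with an exact binomial 95% interval of 0.0346 to 0.621. That interval covers counting error only and not the spread between libraries. FASLG, the gene of the Fas ligand, had 0 counts in all 6 libraries, which allows up to 0.368 CPM in the shallowest. TNF had at most 4 counts in a library.

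Among the receptors, TNFRSF1A (chromosome 12, 6328757 to 6342114) encodes TNF receptor 1. Its CPM were 336.5, 288.1 and 274.5 in DMSO libraries 1, 2 and 3, and 181.2, 186.8 and 211.7 in CCS1477 libraries 1, 2 and 3. The highest CCS1477 value was well below the lowest DMSO value. The log2 fold change was -0.63 ± 0.10 (SE, adjusted p = 0.00142 in the edgeR test), and leaving out any 1 library left it between -0.70 and -0.54, still past the threshold.

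FAS (chromosome 10, 88990531 to 89017059) encodes the Fas receptor and was expressed at a low level. Its counts were 148, 145 and 97 in DMSO and 63, 65 and 75 in CCS1477, or 12.6, 12.4 and 11.9 CPM against 7.07, 6.77 and 8.57 CPM. The groups did not overlap, and CCS1477 3 was the highest of its group. The log2 fold change was -0.72 ± 0.17 (SE, adjusted p = 0.0141 in the edgeR test). This call is less firm than the other 2: it ended without DMSO 1 (adjusted p = 0.0569) or CCS1477 2 (adjusted p = 0.0669) in the same edgeR test, and limma on log2(TPM + 1) gave -0.55 (adjusted p = 0.181).

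The 3 TRAIL receptor genes lie on chromosome 8 between 23020133 and 23225102, with a further family member, TNFRSF10C, between TNFRSF10B and TNFRSF10D. TNFRSF10A and TNFRSF10B encode the signalling receptors DR4 and DR5, and TNFRSF10D encodes a receptor with a truncated death domain that binds TRAIL without passing on the death signal. TNFRSF10A had 39.0, 37.9 and 42.9 CPM in DMSO and 33.2, 32.6 and 28.5 CPM in CCS1477. TNFRSF10D had 53.6, 58.2 and 57.0 CPM in DMSO and 38.5, 51.5 and 43.7 CPM in CCS1477. In both genes every CCS1477 library was below every DMSO library, but by little in TNFRSF10D, where CCS1477 2 came close to DMSO 1. Their log2 fold changes of -0.34 ± 0.12 and -0.33 ± 0.12 (SE) gave adjusted p = 0.0605 and 0.0739 and did not pass in the edgeR test.

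TNFRSF10B, the most abundant TRAIL receptor transcript, had 143.3, 138.5 and 175.1 CPM in DMSO and 136.9, 134.2 and 137.7 CPM in CCS1477. DMSO 3 stood above the other 5 libraries, which lay close together. The log2 fold change was -0.16 with a 95% interval of -0.38 to 0.06 (adjusted p = 0.312 in the edgeR test), and without DMSO 3 it was -0.05. The ratio of TNFRSF10D to TNFRSF10B in TPM was 0.334, 0.364 and 0.299 in DMSO and 0.259, 0.337 and 0.262 in CCS1477, so the groups overlapped. The ratio of TNFRSF10D to TNFRSF10A also overlapped, at 0.982 ± 0.108 in DMSO and 0.960 ± 0.184 in CCS1477 (SD, n = 3). TNFRSF10C, whose product lacks a death domain, had 7, 9 and 3 counts in DMSO and 5, 1 and 1 in CCS1477 and was not tested.

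FADD (chromosome 11, 70203163 to 70207390) links the receptors to caspase-8. It had 74.5, 68.7 and 73.2 CPM in DMSO and 66.7, 67.3 and 68.2 CPM in CCS1477. The groups were separated by less than 1 CPM. The log2 fold change was -0.10 with a 95% interval of -0.29 to 0.10 (adjusted p = 0.499 in the edgeR test).

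CASP8 and CFLAR are neighbours on chromosome 2 with CASP10 between them, at 201233443 to 201287711 and 201116154 to 201176687. CASP8 had 37.6, 40.1 and 34.9 CPM in DMSO and 35.6, 32.7 and 32.9 CPM in CCS1477, and the groups overlapped. Its log2 fold change was -0.16 with a 95% interval of -0.40 to 0.09 (adjusted p = 0.371 in the edgeR test). CFLAR had 154.2, 166.0 and 171.8 CPM in DMSO and 81.0, 80.0 and 77.8 CPM in CCS1477. The CCS1477 libraries were close to each other and far below DMSO. The log2 fold change was -1.04 with a 95% interval of -1.23 to -0.85 (adjusted p = 1.3e-05 in the edgeR test), and its size was at least that of 94.9% of all tested genes. Without any 1 library it lay between -1.08 and -1.01.

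**Figure D2:**
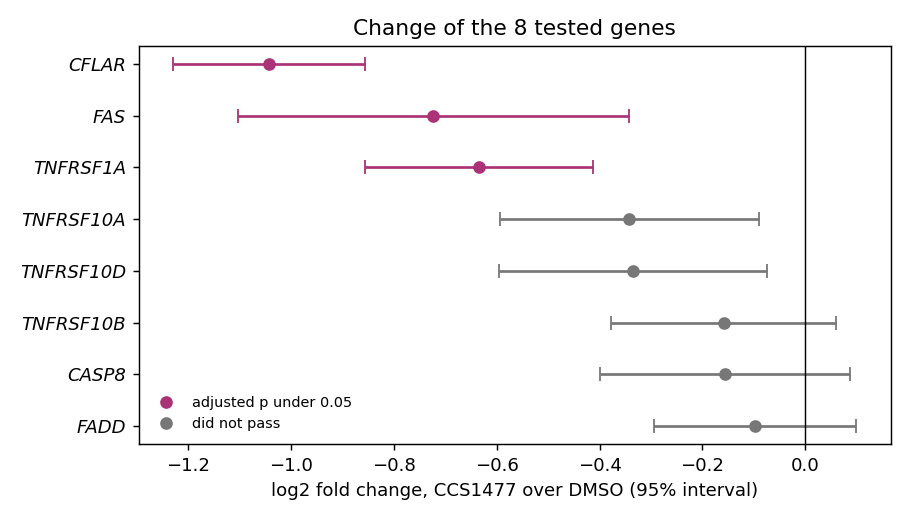
Log2 fold change of CCS1477 over DMSO (horizontal axis) for the 8 tested genes, with 95% intervals from edgeR's quasi-likelihood fit of 3 against 3 libraries. The intervals of CFLAR, FAS and TNFRSF1A, which passed the adjusted threshold, lie farthest below 0, and those of TNFRSF10B, CASP8 and FADD span 0.

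The ratio of inhibitor to protease transcripts was lower in every CCS1477 library than in every DMSO library. CFLAR to CASP8, as a ratio of TPM, was 2.63, 2.41 and 2.43 in DMSO libraries 1, 2 and 3, and 1.41, 1.54 and 1.47 in CCS1477 libraries 1, 2 and 3. The difference of the mean log2 ratios, CCS1477 minus DMSO, was -0.76. CFLAR remained the more abundant of the pair in every library. No test is given for these ratios, since the pairs were chosen with earlier results of these data known.

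**Figure D3:**
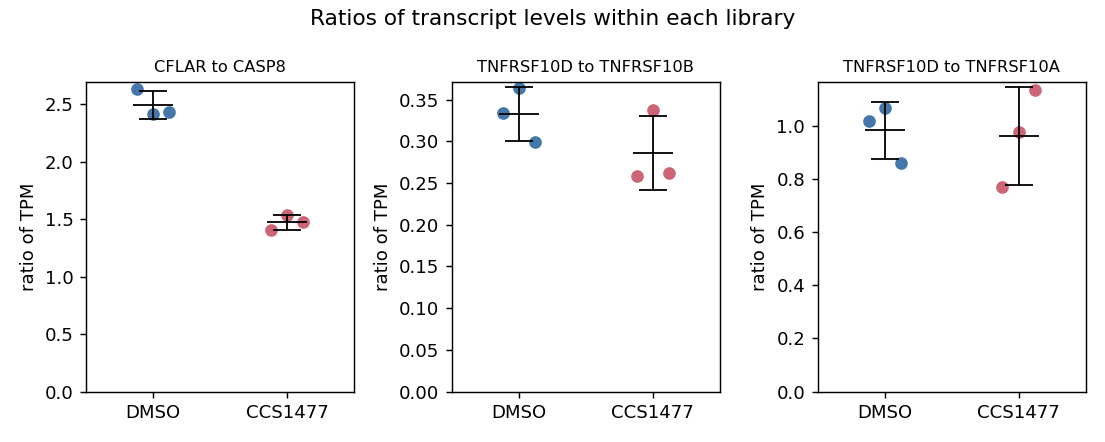
Ratio of TPM (vertical axes, linear from 0) within each library for CFLAR to CASP8, TNFRSF10D to TNFRSF10B and TNFRSF10D to TNFRSF10A. Points are libraries, marks and bars are mean and SD (n = 3), and the groups are apart for CFLAR to CASP8 and overlap for the other 2 ratios.

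Both CFLAR and CASP8 have many transcript forms (18 and 15 coding transcripts in GENCODE 29, from 435 to 14672 and from 308 to 2930 bases), including the long and short forms of cFLIP, and gene-level counts do not separate them. Counts per TPM follow the mean length of the transcripts a gene is assigned, and were taken as log2 values relative to the median gene of each library. For CFLAR they were 0.48, 0.52 and 0.35 in DMSO and 0.42, 0.30 and 0.43 in CCS1477. The groups overlapped, and 45.6% of 14823 genes had a shift at least as large as the -0.07 of CFLAR. For CASP8 they were -0.16, -0.26 and -0.67 in DMSO and -0.28, -0.37 and -0.26 in CCS1477. DMSO 3 stood apart, so the CPM of CASP8 was lowest of its group in that library while its TPM (32.0) was highest. None of the 8 tested genes had groups that were apart in this measure.

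Several other genes share bases with these. IMPDH1P10, a pseudogene inside CFLAR on the other strand, had 77, 87 and 61 counts in DMSO and 48, 47 and 26 in CCS1477, where CFLAR had 681 to 1941 counts. The strandedness of the counting is not given in the sources used here, so reads of the pair cannot be told apart. CFLAR-AS1 had at most 6 counts. ACTA2, which shares bases with FAS on the other strand, had 6 to 13 counts in a library. ENSG00000254721 shares the end of FADD on the other strand, with 305, 363 and 239 counts in DMSO and 231, 229 and 261 in CCS1477, against 594 to 874 for FADD. RHOBTB2, which meets TNFRSF10B end to end, had a log2 fold change of -0.06, and TNFRSF10A-AS1 and ENSG00000246582, antisense to TNFRSF10A, had -0.28 and -0.25. None of these tested partners passed edgeR's test.

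The fall of CFLAR was set beside its chromosomal neighbours. Of the 15 tested genes with a middle within 500 kb of that of CFLAR, itself included, 3 were lower and 0 higher in edgeR, or 4 lower and 1 higher at an unadjusted p below 0.05. Over all tested genes the shares were 10.7% lower and 7.23% higher, or 17.3% and 14.4% unadjusted, and CFLAR itself is 1 of the 15. BZW1, a translation regulator, and PPIL3, a prolyl isomerase, at 327.5 and 266.3 kb on one side, stood at -0.34 and -0.60 on the log2 scale (adjusted p = 0.0101 and 0.0357 in the edgeR test). CASP10, a caspase close to caspase-8 and the nearest coding gene on the other side, averaged 13.8 ± 0.867 CPM with DMSO and 11.3 ± 0.900 with CCS1477 (SD, n = 3), a log2 fold change of -0.29 that did not pass. The other 11 neighbours, which did not pass, were IMPDH1P10 (-0.69), NDUFB3 (-0.19), CASP8 (-0.16), NIF3L1 (-0.02), ORC2 (0.11), TRAK2 (0.15), CLK1 (0.18), TMEM237 (0.19), STRADB (0.30), FAM126B (0.41) and C2CD6 (0.52). FAM126B passed when scaled by library size (0.46), without a filter (0.43) or without DMSO 2 (0.55). The calls of BZW1 and PPIL3 ended without DMSO 1, CCS1477 2 or CCS1477 3, that of PPIL3 also without DMSO 3 or with the replicate block (adjusted p = 0.0527 in the edgeR test), and both on the TPM scales.

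**Figure D4:**
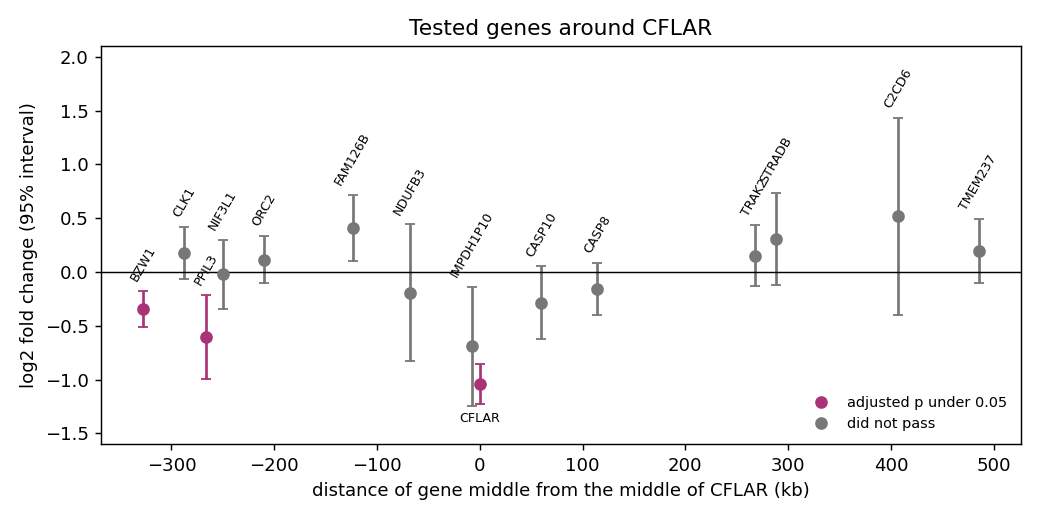
Log2 fold change of CCS1477 over DMSO with 95% intervals (vertical axis) for the tested genes around CFLAR, by distance of their middle from the middle of CFLAR in kb (horizontal axis). CFLAR, at 0 kb, is the lowest point, and CASP10 and CASP8 to its right lie below 0 with intervals that span 0.

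The bases before the annotated starts were searched because NF-κB, interferon and AP-1 factors are known regulators of these genes. RefSeq promoter entries (GRCh38.p14) were matched for 6 of the 9 genes, FAS with 3 starts, CASP8 with 3 and CFLAR with 4. The 250 bases before each start were searched on both strands for the kappa-B consensus, the interferon-stimulated response element GAAANNGAAA, the GAS element TTCNNNGAA and the AP-1 element TGANTCA. Shown are the stretches of 30 bases around the kappa-B matches of CFLAR and FAS, both lower with CCS1477, and around the interferon element of TNFSF10, with the match in capitals.
CFLAR: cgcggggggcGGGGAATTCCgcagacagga
FAS: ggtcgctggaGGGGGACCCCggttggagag
TNFSF10: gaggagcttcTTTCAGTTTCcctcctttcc

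The CFLAR stretch is chr2:201118609-201118638 on the plus strand, with the match 97 to 88 bases before one of the 4 starts, and it overlaps annotated exons of other CFLAR transcripts in GENCODE 29. The FAS stretch is chr10:88991264-88991293 on the plus strand, 157 to 148 bases before one of the 3 starts, within exons of a noncoding FAS transcript and of ACTA2. The TNFSF10 stretch is chr3:172523598-172523627 on the minus strand, 187 to 178 bases before the start, outside annotated exons. Over all 35116 promoter entries, 9.96% held a kappa-B match, 3.02% an interferon element, 6.57% a GAS element and 6.57% an AP-1 element. AP-1 matches were found before 1 start each of FAS, CASP8 and CFLAR, a GAS match before 1 start of CASP8, and no match before TNFRSF1A or FADD. Genes with several starts had more bases searched, and a match describes letters only.

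Across the 6 libraries, the 3 genes whose log2 CPM followed CFLAR most closely, among 11501 genes with a mean of at least 5 CPM, were OLMALINC, HMGCS1 and LPIN2, with Pearson's r of 0.999, 0.998 and 0.998. These points share the 2 groups and the library scaling, and OLMALINC, a long noncoding RNA, had a smaller log2 fold change of -0.60. HMGCS1, a mevalonate pathway enzyme, stood at -0.61 and LPIN2, a phosphatidate phosphatase, at -0.29. The call of LPIN2 (adjusted p = 0.0273 in the edgeR test) held in 5 of 15 alternatives. It ended without any 1 library but DMSO 3, with library size scaling, without a filter, with the replicate block, and on both TPM scales, where limma gave -0.10. The calls of OLMALINC and HMGCS1 held in all 15.

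The rest of the pathway was read from 3 lists of 54 genes in all, 45 of them tested. NGFR, a receptor gene with a death domain, met the filter's 1.1 CPM only in CCS1477 libraries, so it entered the test through the group where it was high and is left out of the counts and medians of the lists. The other 44 moved in both directions, with 7 higher and 10 lower and a median log2 fold change of -0.03. For comparison, the same edgeR threshold called 7.23% of the 14928 genes upward and 10.7% of them downward. Among ligands and other receptors of the family, 1 of 6 genes was higher and 4 lower, with a median of -0.43. TNFRSF1B, which encodes TNF receptor 2, fell from 10.00 ± 1.75 to 3.31 ± 0.992 CPM (SD, n = 3), a log2 fold change of -1.59 (adjusted p = 0.00162 in the edgeR test). LTBR, the lymphotoxin receptor gene, fell by 0.39 on the log2 scale, and the death receptor genes TNFRSF21 and TNFRSF25 fell by 0.48 and 0.65. TNFRSF12A, the gene of the TWEAK receptor Fn14, rose from 139.4 ± 38.3 to 219.6 ± 38.9 CPM (SD, n = 3). Its groups overlapped, with DMSO 3 at 176.7 CPM and CCS1477 1 at 174.8 CPM. The DMSO libraries averaged 0.827 ± 0.130 CPM for NGFR and the CCS1477 libraries 2.81 ± 0.761 (SD, n = 3). TNFSF12, the TWEAK gene, did not pass. The calls of TNFRSF12A, TNFRSF21 and TNFRSF25 ended without DMSO 1, CCS1477 2 or CCS1477 3, that of LTBR without DMSO 1 or CCS1477 2, and that of TNFRSF25 also without DMSO 3. TNFRSF1B kept its call without any 1 library but lost it with limma on log2(TPM + 1), at -0.79 (adjusted p = 0.0739), and on log2(TPM + 0.1), at -1.06 (adjusted p = 0.0896). The other 4 calls of this list ended on both TPM scales too.

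In the list of receptor-complex proteins and their regulators, 5 of 24 tested genes were higher and 6 lower, with a median of -0.02. Among all tested genes, 7.23% were higher and 10.7% lower. RIPK1, the kinase recruited to TNF receptor 1 that can also drive cell death, rose from 43.4 ± 1.87 to 64.9 ± 1.91 CPM (SD, n = 3), a log2 fold change of 0.58 (adjusted p = 0.00184 in the edgeR test). The deubiquitinase gene OTULIN rose at 0.35, the ubiquitin ligase gene BIRC2 at 0.39 and PEA15, whose product has a death effector domain, at 0.33. MLKL, the executor of necroptosis, fell from 32.2 ± 1.04 to 17.1 ± 2.95 CPM (SD, n = 3), a log2 fold change of -0.91. The NF-κB brake TNFAIP3 fell from 44.4 ± 4.05 to 20.4 ± 3.19 CPM, its partner TNIP1 from 305.7 ± 3.70 to 215.1 ± 13.4 CPM (SD, n = 3), and the adaptor TRAF2 by 0.43 on the log2 scale. The remaining calls, named after their values were seen, were CYLD at 0.39, RBCK1 at -0.31 and DAXX at -0.32. RIPK3, the kinase that activates MLKL, had 0 counts in 5 libraries and 4 in CCS1477 2.

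The calls of RIPK1, TNFAIP3, TNIP1 and MLKL held in all 15 alternatives, while on the TPM scales the only other call to hold was that of OTULIN, and the counts of this list fell to 1 higher and 3 lower without DMSO 1 or CCS1477 2, and to 2 higher and 3 lower without CCS1477 1. In the executioner and mitochondrial list, 1 of 14 genes was higher and 0 lower, in edgeR with or without adjustment and in DESeq2, with a median of -0.02. Over all tested genes in edgeR, 7.23% were higher and 10.7% lower with adjustment, and 14.4% and 17.3% without. The higher gene of this list was CASP6, an executioner caspase. It rose from 11.3 ± 1.88 to 21.1 ± 1.13 CPM (SD, n = 3), a log2 fold change of 0.90 (adjusted p = 0.00253 in the edgeR test), in all 15 alternatives too. The other 13, with the caspase-8 substrate BID among them, did not pass.

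**Figure D5:**
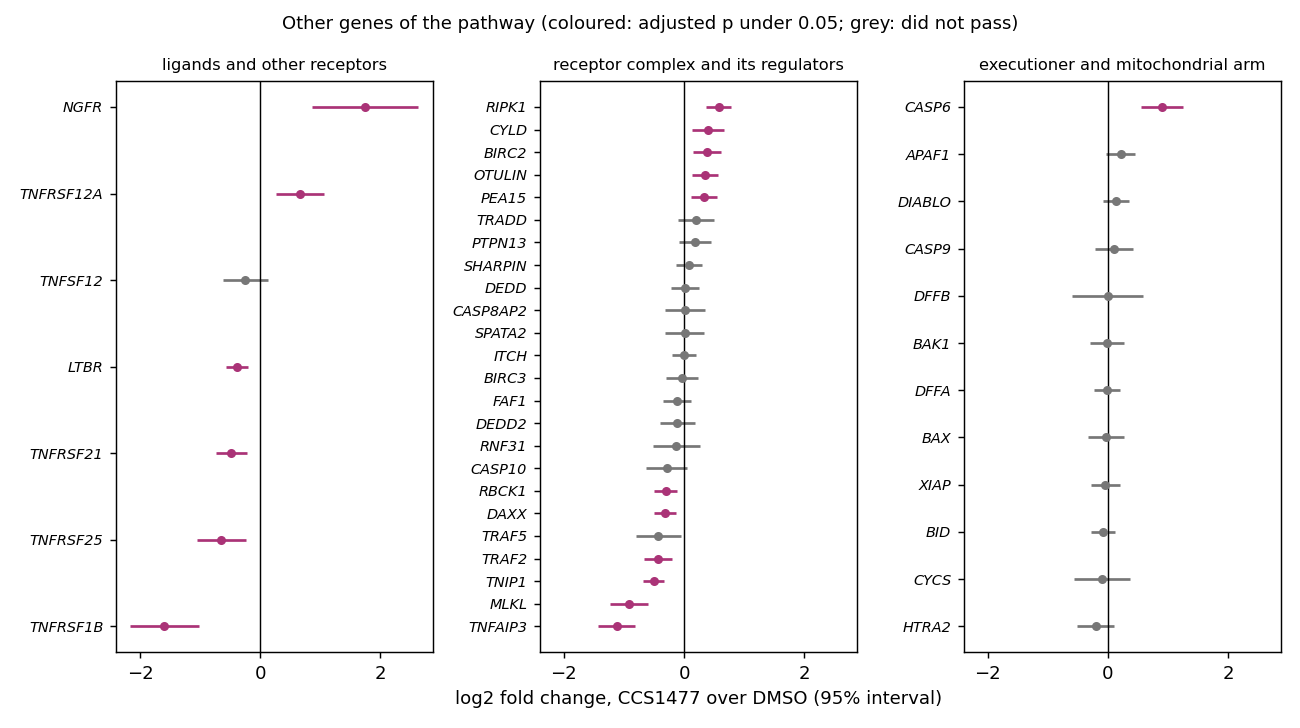
Log2 fold change of CCS1477 over DMSO with 95% intervals (horizontal axis) for 43 of the 45 tested genes of the 3 lists, coloured where the adjusted p was below 0.05. TNFRSF1B and TNFAIP3 lie lowest in their lists, RIPK1 and CASP6 highest in theirs, and most executioner and mitochondrial genes lie near 0. NGFR is plotted too, but it met the filter only in CCS1477 libraries, the group where it was high.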

How the data were processed

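The authors deposited a table of estimated counts per gene and a table of TPM, 1 column per library, matched to samples by the library names in the labels. The deposited estimated counts were not normalized, between 10.2% and 10.7% of the nonzero values were not whole, and they were rounded. TPM values, as deposited, added up to the same total in all libraries, to within rounding. For the aligner, quantifier, build and strandedness, the name is not given in the sources used here; the submitters' processing notes list Trimmomatic 0.39. Gene coordinates are the files', and TNFRSF1A, FADD and CASP8 had the same ends in GENCODE 29 (GRCh38). The rest of the members differed at 1 end or both, most of all FAS, by 51 and 1274 bases.

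Low genes were removed with filterByExpr in edgeR 4.0.16 (minimum count 10, minimum total 15), leaving 14928 of 25155 genes with a count. The test of CCS1477 against DMSO was the quasi-likelihood test of edgeR after TMM scaling, without covariates, with Benjamini-Hochberg adjustment and a threshold of 0.05. Standard errors and 95% intervals come from the test statistic. Each list is described by counts and median, and some of their genes are not reported here by name. The members and lists were chosen with earlier results of these data known. The naming rule takes every member, up to 4 called genes per direction from each list, FASLG, TNF, CASP10 and TNFRSF10C, every tested gene within 500 kb of CFLAR, overlapping genes, and the 3 genes closest to CFLAR in log2 CPM with a prior count of 2. Alternatives used DESeq2 1.42.0 and limma 3.58.1, in R 4.3.3, and the procedure was tested on simulated data. Figures were drawn with matplotlib 3.10.9.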

Additional observations from a re-analysis of the deposited data

How the results depend on the processing

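The calls of CFLAR and TNFRSF1A held in all 15 alternatives: scaling by library size or DESeq2 factors, DESeq2, limma-voom, limma on TPM with a pseudocount of 1 or 0.1, no filter, a filter of 1 CPM in 3 libraries (which kept 15179 genes, more than the 14928 of the filter used), a block for the replicate number, and the removal of each library in turn. CFLAR lay between -1.08 and -0.89 and TNFRSF1A between -0.70 and -0.54. On log2(TPM + 1) and log2(TPM + 0.1), TNFRSF1A passed only narrowly in limma (adjusted p = 0.0455 and 0.0486). CFLAR had adjusted p = 0.00445 and 0.00532 in the same limma tests. FAS lost its call on the log2(TPM + 1) scale (-0.55) and the log2(TPM + 0.1) scale (-0.61), and lay between -0.83 and -0.66 without 1 library. TNFRSF10A, TNFRSF10B, TNFRSF10D, FADD and CASP8 kept their negative sign and did not pass in any of the 15. TNFSF10 entered the test only without a filter (-2.26, adjusted p = 0.239, edgeR), a fitted value that rests on counts at the floor. The cause of these differences was not tested.

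Limma on log2(TPM + 1) called 293 genes higher and 427 lower, against 1079 and 1597, with 0 and 0 in the ligand and receptor list, NGFR counted here, and 2 and 3 in the receptor-complex list. On log2(TPM + 0.1) these were 280 and 410, 1 and 0, and 2 and 3, and the 1 was NGFR. Without 1 library, genes higher numbered 480 to 1321 and lower 924 to 1773. The ligand and receptor list, with NGFR again counted, had 0 to 2 higher and 1 to 4 lower. The receptor-complex list had 1 to 4 higher and 3 to 6 lower. The same-numbered libraries did not deviate together (correlations of -0.09, -0.20 and -0.01). With 3 libraries per group, these values cannot settle whether the numbers pair them. With the replicate block, 0 of the 8 tested members were higher and 3 lower, and the receptor-complex list had 2 higher and 4 lower. Among all tested genes, that block gave 799 higher and 1306 lower. Ranked by CPM instead of TPM, TNFRSF10D moved to place 5 and CASP8 to place 7. Scaled to the sum over genes, the shifts in counts per TPM of TNFRSF10D and FADD were -0.02 each. Depth limits TNFSF10, FASLG and TNFRSF10C, which lay near or below 3 counts in most libraries.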

Other observations

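TNFRSF11B, the gene of osteoprotegerin, a soluble receptor that also binds TRAIL, had 13, 8 and 7 counts in DMSO libraries 1, 2 and 3, and 2, 3 and 2 counts in CCS1477 libraries 1, 2 and 3. It was named after its values were seen and did not enter the test. LTA, the lymphotoxin alpha gene, likewise had 4, 3 and 5 counts in DMSO and 0 in each CCS1477 library, at or near the detection floor of 3 counts.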
